A study of Mus musculus with 32 samples.

Results

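The genes followed here are 10 markers of vascular endothelial cells, measured by microarray in total RNA of the mouse cardiac ventricle: Vwf, Tie1, Tek, Flt1, Kdr, Pecam1, Cdh5, Eng, Nos3 and Edn1. All probe sets annotated with 1 of these symbols alone were taken, whatever their signal. They number 14 of 12488 probe sets on the first array type and 2 of 12477 on the second. Of these 16 probe sets, 11 were bright enough to be tested, 10 of the first type and 1 of the second, and they cover 8 of the 10 genes. Tek and Pecam1 had no tested probe set.

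On each array type there were 3 failure arrays, 8 hypertrophy arrays and 5 wild type arrays. The failure and hypertrophy mice both carry a cardiac specific AT1 transgene, and the wild type mice have a normal heart. The labels leave AT1 unexpanded; the abbreviation commonly means the receptor of angiotensin II. They give neither the promoter of the transgene nor the age, sex or strain, and do not tie the arrays to individual mice. P-values below therefore reflect only the spread between these arrays, which may be technical.

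Endothelial cells line every blood vessel and make up much of the cell number of the ventricle, where each cardiomyocyte lies beside capillaries. Their identity rests on a set of surface receptors (the VEGF receptors Flt1 and Kdr, the angiopoietin receptor Tek with its relative Tie1, and the TGF-beta family co-receptor Eng), on junction proteins (Cdh5 and Pecam1) and on secreted or signalling products (the clotting protein Vwf, the nitric oxide synthase Nos3 and the vasoconstrictor peptide endothelin 1, from Edn1). Several of them are also made elsewhere: Vwf and Pecam1 in platelets, Edn1 in cardiomyocytes and fibroblasts.

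Tie1 and Flt1 are the genes for which more than 1 tested probe set was available, and their promoters are shown because both had a probe set that separated failure from wild type below. RefSeq promoter sequences of GRCm38.p6 were available for 6 of the 10 genes. Over the 250 bases before the annotated start, the hexamer AGGAAG, a core read by ETS transcription factors such as those of endothelial cells, was searched on both strands. It was present in 3 of these 6 promoters (Eng, Tie1 and Flt1) and in 29.5% of all 32851 promoters of this length, so its presence is common. Capitals mark the hexamer, or its reverse complement where it lies on the other strand.
Tie1, chr4:118489850-118490099, minus strand: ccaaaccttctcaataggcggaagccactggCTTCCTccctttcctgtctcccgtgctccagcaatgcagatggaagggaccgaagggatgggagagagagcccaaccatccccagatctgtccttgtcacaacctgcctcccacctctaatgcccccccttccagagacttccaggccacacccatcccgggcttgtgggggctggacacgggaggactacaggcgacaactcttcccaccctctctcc
Flt1, chr5:147726012-147726261, minus strand: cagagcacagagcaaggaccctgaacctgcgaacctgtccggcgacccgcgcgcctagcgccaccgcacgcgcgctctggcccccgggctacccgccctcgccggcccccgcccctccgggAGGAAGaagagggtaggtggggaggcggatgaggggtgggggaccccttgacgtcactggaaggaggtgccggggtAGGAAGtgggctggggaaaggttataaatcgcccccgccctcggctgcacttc
In Tie1 the match lies on the other strand, its first printed base 219 bases before the start. Flt1 has matches at 129 and 53 bases before the start and, 31 bases before it, the letters TATAAA, which 12.4% of promoters hold on either strand. The letters AGATAA, read by GATA factors, were in none of the 6 promoters and in 9.99% of all.

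Median signals of the arrays were 91.8 to 121 for the first type and 69.3 to 80.6 for the second. Hypertrophy replicate 1 had the lowest median of both types. Its signal was the lowest of the 16 arrays for 31.1% of the tested probe sets of the first type and 17.1% of those of the second. Hypertrophy replicates 6 and 7 had low ratios of 5' to 3' Gapdh signal (0.468 and 0.0487 on the first type, against 0.806 to 0.955 in the wild type arrays). For Actb this ratio, which falls when RNA is shortened from its 5' end, averaged 0.960 ± 0.173 (SD) over the 3 failure arrays of the first type, 0.701 ± 0.204 (SD) over the 8 hypertrophy arrays and 0.623 ± 0.0819 (SD) over the 5 wild type arrays.

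The comparison of failure with wild type asks how the ventricle of transgenic mice differs once the heart fails. In 1 tested probe set each of Vwf, the receptors Tie1 and Flt1 and the enzyme Nos3, every failure array was above every wild type array. The largest of these differences was 1.84-fold in the limma fit. The other probe sets of these genes overlapped between the groups, and the second of Vwf and the third of Flt1 had lower means in failure. Kdr, Cdh5, Eng and Edn1 overlapped. Failure means were higher for Edn1 (251 in failure, 216 in wild type) and Cdh5 (257 in failure, 245 in wild type) and lower for Kdr. Those of Eng were lower on the first type and higher on the second. Pecam1, dim and not tested, also had every failure array above every wild type array. None of the 10 tested probe sets of the first type, nor the 1 of the second, was called after Benjamini-Hochberg adjustment over all probe sets in limma (0.143% of all tested probe sets of the first type and 0.357% of the second were called). At an unadjusted p under 0.05 limma found 3 of 10, all higher (Vwf and 1 probe set each of Tie1 and Flt1), where 7.15% of all probe sets of the type were higher at that level. In 4 of 10, again all higher, no failure array overlapped any wild type array, against 8.58% of all tested probe sets of the type. Differences were positive in 8 of 10, as in 58.5% of all probe sets of the type, and the median log2 difference of the 10 was 0.27, beside 0.04 for all probe sets of the type. Without the second Tie1 probe set, which passed the filter through transgenic arrays alone, 7 of 9 were positive, with a median of 0.27. In whole ventricle RNA, a change in the number of endothelial cells and a change in RNA per cell cannot be told apart.

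**Figure D1:**
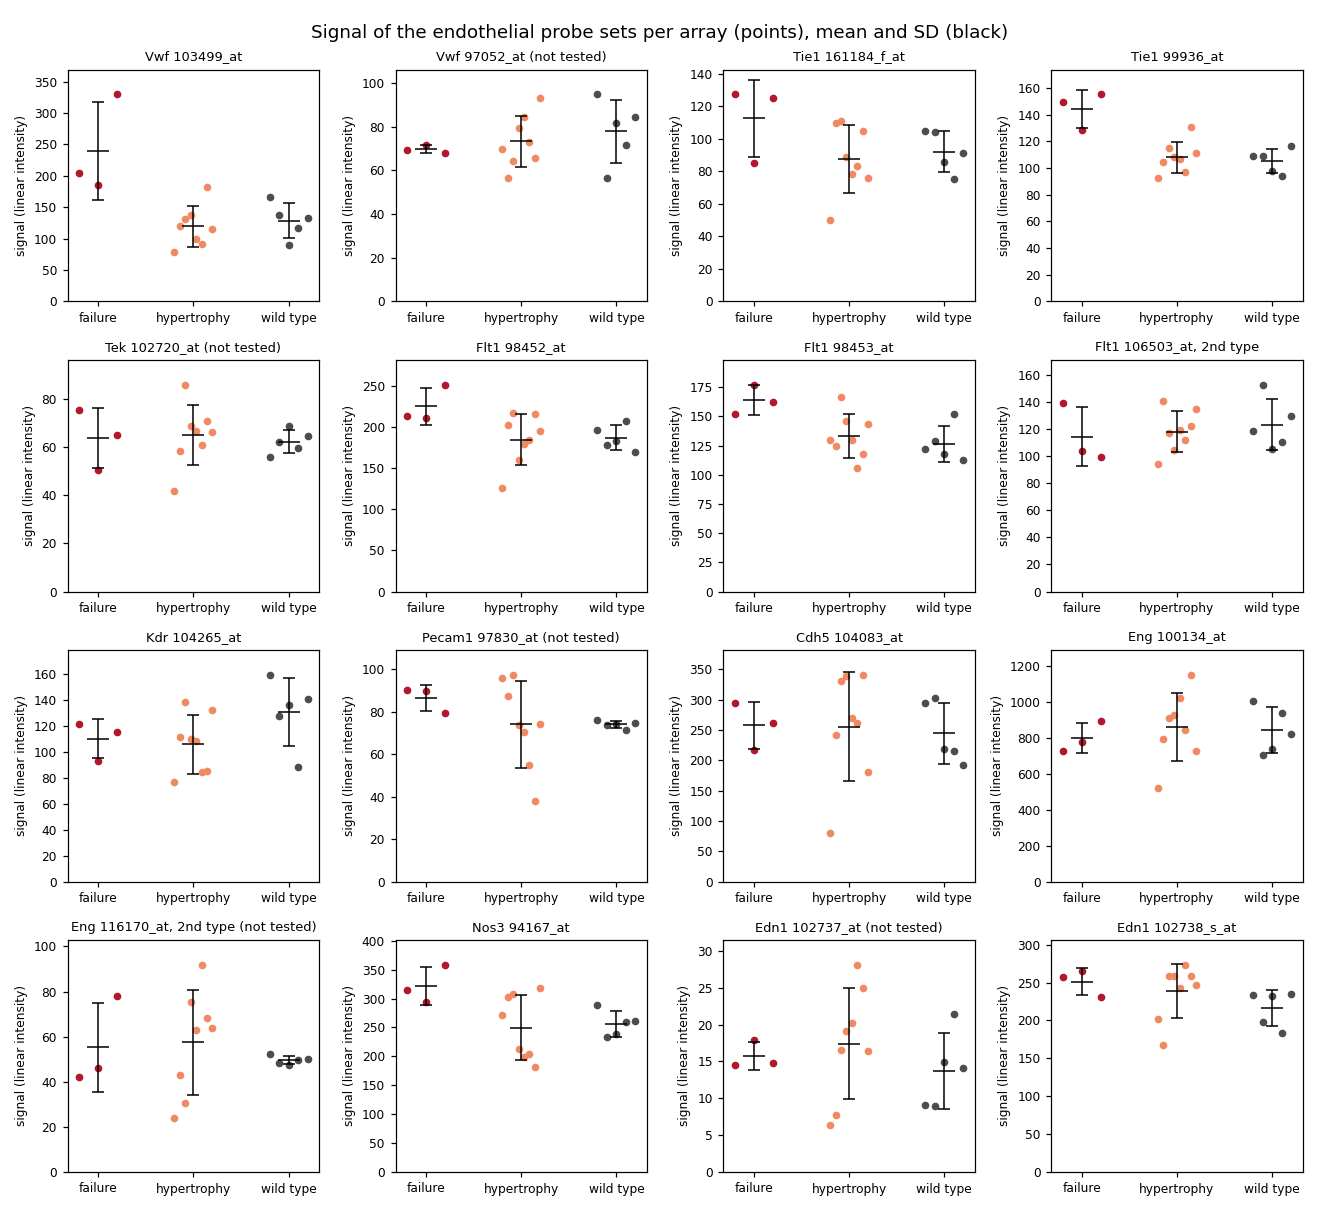
Signal of all 16 endothelial probe sets (linear intensity, vertical axes from 0) in failure, hypertrophy and wild type arrays; points are arrays in replicate order and black marks the mean and SD. Vwf 103499_at and Tie1 99936_at place the 3 failure arrays higher than each of the 5 wild type arrays, and Cdh5 has 1 hypertrophy array, at 79.5, far below the others.

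Vwf encodes von Willebrand factor, which endothelial cells store and release to tether platelets. Its brighter probe set, 103499_at, had signals of 205, 185 and 329 in failure, 78.1 to 182 with a median of 117 in hypertrophy, and 166, 138, 89.7, 117 and 133 in wild type. All 3 failure arrays were above every hypertrophy and every wild type array. The log2 difference of failure from wild type was 0.88 ± 0.25 (SE), or 1.84-fold, which was larger than that of 99.1% of probe sets on the type but did not pass (adjusted p = 0.199). Failure replicate 3 was the highest array, and without it the difference was 0.63. The second Vwf probe set, 97052_at, never reached the median of its array and was not tested. Its signals were 69.4, 71.7 and 68.0 in failure and 94.8, 56.8, 81.9, 71.6 and 84.4 in wild type. These failure values lay within the wild type range, so the probe sets of Vwf disagree.

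Tie1 is an orphan receptor tyrosine kinase that modulates angiopoietin signalling through its partner Tek. Probe set 99936_at had signals of 149, 128 and 155 in failure, 92.6 to 131 with a median of 107 in hypertrophy, and 109, 109, 97.4, 94.4 and 117 in wild type. All failure arrays exceeded all wild type arrays, and 1 hypertrophy array, replicate 7, lay above the lowest failure array. The log2 difference was 0.45 ± 0.12 (SE), with the smallest adjusted p of the 11 probe sets (0.149). Its second probe set, 161184_f_at, whose suffix marks probes that may match related transcripts, gave 127, 85.1 and 125 in failure and 105, 104, 85.7, 75.3 and 91.1 in wild type. Here failure replicate 2 lay inside the wild type range, and the difference was 0.28 ± 0.22 (SE). This probe set reached its array's median in 3 arrays, 2 failure and 1 hypertrophy, so it was tested only because of its brighter transgenic arrays.

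Tek, the receptor of the angiopoietins, was dim in its single probe set and not tested. It had signals of 75.6, 50.8 and 65.0 in failure, 41.9 to 86.1 in hypertrophy and 56.1 to 69.0 in wild type. Failure arrays lay on both sides of the wild type range.

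Flt1, VEGF receptor 1, binds VEGF-A tightly with weak kinase output and can act as a decoy. Probe set 98452_at had signals of 213, 211 and 252 in failure, 126 to 217 with a median of 189.8 in hypertrophy, and 196, 178, 183, 208 and 169 in wild type. The failure and wild type arrays did not overlap, although the nearest of them were 211 and 208, and the log2 difference was 0.27 ± 0.15 (SE, adjusted p = 0.583). Probe set 98453_at had signals of 152, 177 and 162 in failure and 122, 129, 118, 152 and 113 in wild type. There the lowest failure array, at 151.77, lay just under the highest wild type array, at 151.95, and the difference was 0.38 ± 0.14 (adjusted p = 0.326). The third probe set, 106503_at on the second array type, had 139, 104 and 99.3 in failure and 118, 153, 105, 110 and 129.7 in wild type. Failure replicates 2 and 3 lay below all wild type arrays and replicate 1 inside their range, and the difference was -0.11 ± 0.15, the direction opposite to both probe sets of the first type.

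Kdr, VEGF receptor 2, carries most of the mitogenic VEGF signal. Its signals were 122, 93.3 and 116 in failure, 77.0 to 139 with a median of 109.6 in hypertrophy, and 159.6, 128, 137, 88.6 and 141 in wild type. In 4 of the 5 wild type arrays Kdr was above every failure array, and the fifth was below them all. Log2 differences were -0.23 ± 0.21 (SE) for failure and -0.30 ± 0.16 (SE) for hypertrophy against wild type, and the second was the lowest of the 10 probe sets of the first type in that comparison. The failure difference was -0.11 without failure replicate 2 and -0.36 without wild type replicate 4.

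Cdh5, VE-cadherin of the adherens junction, had signals of 294, 217 and 261 in failure and 294, 303, 219, 215 and 192 in wild type. The groups overlapped, with a log2 difference of 0.09 ± 0.36 (SE). Pecam1, the CD31 adhesion molecule, was under the array median in 15 of 16 arrays and was not tested. It had signals of 90.2, 89.9 and 79.1 in failure and 76.2, 73.8, 74.3, 71.4 and 74.6 in wild type, which did not overlap.

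Eng, endoglin, presents BMP9 and TGF-beta ligands to endothelial receptors. On the first array type it had signals of 726, 776 and 892 in failure, 523 to 1150 in hypertrophy and 1005, 702, 740, 936 and 823 in wild type. All failure arrays were within the wild type range, and the log2 difference was -0.07 ± 0.20 (SE). Its probe set on the second type was not tested. There it had 41.9, 46.1 and 78.0 in failure and 47.2 to 52.2 in wild type, so failure replicates 1 and 2 were below and replicate 3 above all wild type arrays.

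Nos3 makes nitric oxide, the main endothelial vasodilator. Its signals were 315, 294 and 358 in failure, 182 to 318 with a median of 242 in hypertrophy, and 289, 234, 238, 259.5 and 260.5 in wild type. The failure arrays were all above the wild type arrays, and the log2 difference was 0.33 ± 0.18 (SE, adjusted p = 0.555). The Actb ratio of each array was also added to the model, a choice made once the values had been seen. With it the difference was -0.039 for Nos3, 1.14 for Vwf, 0.52 for Tie1 99936_at, 0.41 for Flt1 98452_at and 0.30 for Eng. All failure ratios (0.765 to 1.10) lay above all wild type ratios (0.545 to 0.752). The adjusted differences therefore rest on a slope taken as equal in all groups, which was not tested. Edn1 was read by 1 tested probe set, 102738_s_at, whose suffix marks probes that can match more than 1 transcript. It had 257, 265.5 and 231 in failure and 233, 198, 232, 184 and 234 in wild type, with a log2 difference of 0.22 ± 0.15 (SE). Failure replicate 3 lay inside the wild type range. The second Edn1 probe set, 102737_at, was below the floor of 39.5 in all 16 arrays.

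**Figure D2:**
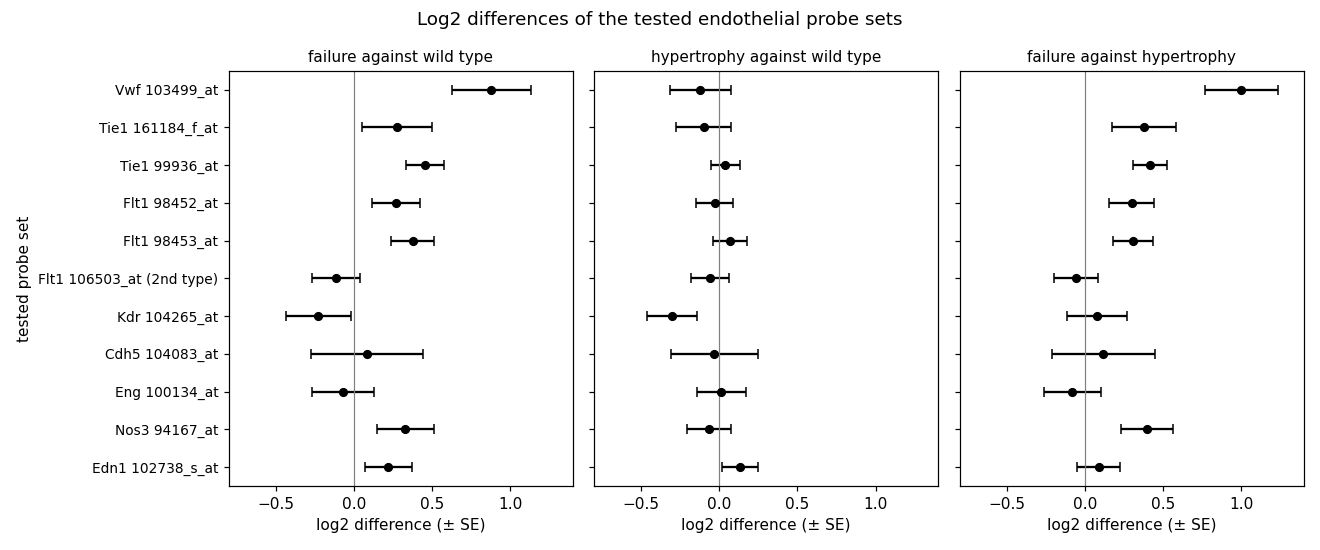
Log2 differences (horizontal axis, bars are the SE of the limma fit) of the 11 tested probe sets in failure against wild type, hypertrophy against wild type and failure against hypertrophy. Vwf has the largest difference in both failure comparisons, 0.88 and 1.0, and the values of hypertrophy against wild type lie between -0.30 and 0.13.

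Hypertrophy was compared with wild type to ask how the enlarged ventricle of transgenic mice differs. The endothelial genes had signals around those of wild type. None of the 10 probe sets of the first type had an adjusted or an unadjusted limma p under 0.05 (0% of all probe sets of the type were called, and 2.25% were higher and 2.22% lower at the unadjusted level), nor did the 1 on the second type, where 0.171% were called. In none did the arrays of the groups separate, as they did in 0.1% (higher) and 0.0716% (lower) of probe sets of the first type. Differences were positive in 4 of 10, against 46% of all probe sets of the type, and the median was -0.03, beside -0.01 for all. Vwf differed by -0.12 ± 0.20 and Tie1 99936_at by 0.04 ± 0.09 (log2, SE).

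The spread among hypertrophy arrays was compared with that among wild type arrays. The coefficient of variation of the signal was larger in hypertrophy than in wild type for 10 of the 10 tested probe sets of the first type, where it was so for 81.3% of all tested probe sets. On the second type Flt1 had 12.8% in hypertrophy and 15.4% in wild type, where 75.5% of all tested probe sets were larger in hypertrophy. For Pecam1 it was 27.5% in hypertrophy and 2.32% in wild type, for Nos3 22.4% in hypertrophy and 8.65% in wild type, and for Cdh5 35.2% in hypertrophy and 20.6% in wild type. Hypertrophy replicate 1 was the lowest of all 16 arrays in 7 of the 10 tested probe sets of the first type, beside the 31.1% given above for all tested probe sets. Cdh5 was 79.5 there, against 181 to 341 in the other 7 hypertrophy arrays. Eng was 523, against 726 to 1150, and Flt1 98452_at was 126, against 159.5 to 217. Without this array, Cdh5 differed from wild type by 0.19 in place of -0.03 (log2). Pecam1 went the other way, with 95.8 in hypertrophy replicate 1, just under the highest of the 16 arrays (97.4, hypertrophy replicate 3).

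**Figure D3:**
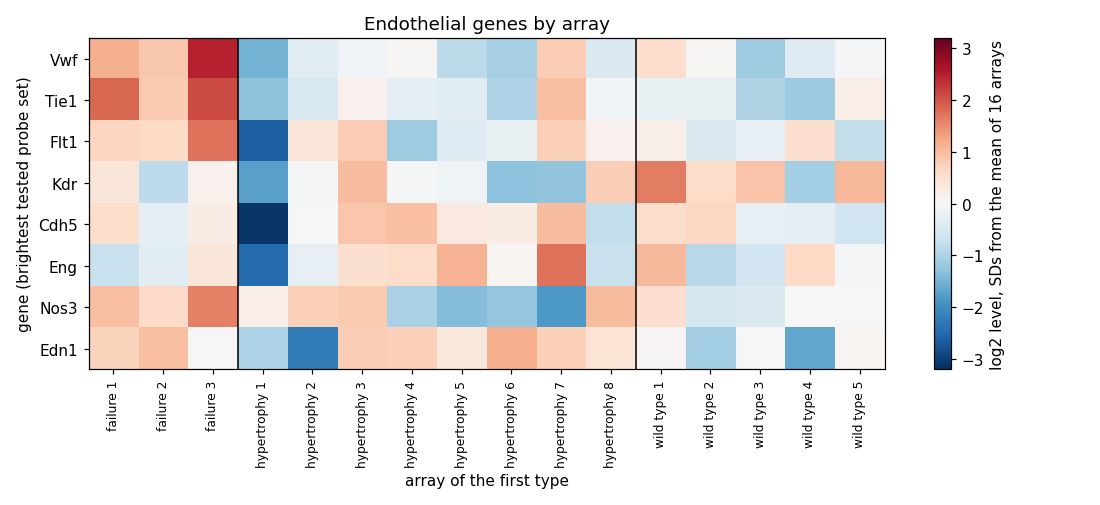
Log2 level of 8 endothelial genes (rows, brightest tested probe set) in each array of the first type (columns), coloured by the number of SDs from the gene's mean over the 16 arrays. Hypertrophy replicate 1 reaches -3.12 for Cdh5, and failure replicate 3 reaches 2.45 for Vwf.

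Nos3 and Pecam1 were next set beside the RNA quality of the hypertrophy arrays. Nos3 was 271, 302, 308 and 318 in hypertrophy replicates 1, 2, 3 and 8, and 213, 198, 205 and 182 in replicates 4, 5, 6 and 7. Pecam1 was 95.8, 87.5 and 97.4 in replicates 1, 2 and 3 and 73.7, 70.6, 54.8, 37.8 and 74.1 in replicates 4 to 8. Replicates 1, 2 and 3 were thus above replicates 4 to 7 for both genes, with Pecam1 spread widely among the lower arrays. The Actb 5' to 3' ratio was 0.992, 0.870 and 0.848 in replicates 1, 2 and 3, 0.756 in replicate 8 and 0.357 to 0.624 in replicates 4 to 7. Over the 8 hypertrophy arrays the log2 level of Pecam1 and this ratio had r = 0.93 (exact permutation p = 0.00037, two-sided, adjusted p = 0.0048 over 13 probe sets) and rho = 0.90 (exact p = 0.0046, adjusted p = 0.0593). Without the 2 arrays farthest from the median ratio r was 0.87. For Nos3 r was 0.84 (exact permutation p = 0.014, adjusted p = 0.0648), rho 0.69 (exact p = 0.0694, adjusted p = 0.226) and r without those 2 arrays 0.91. Eng had the most negative value, r = -0.81 (exact permutation p = 0.015, adjusted p = 0.0648) and rho = -0.74 (exact p = 0.0458, adjusted p = 0.226), with r = -0.40 without the same arrays. These relations were looked for after the values had been seen. The failure arrays, in which Nos3 and Pecam1 were above wild type, had Actb ratios of 1.10, 0.765 and 1.02, above the wild type range of 0.545 to 0.752.

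Failure was compared with hypertrophy, both transgenic, to set both states of the disease side by side; this comparison shares its failure arrays with the first. Vwf averaged 239.7 ± 78.3 (SD) over the 3 failure arrays and 119 ± 32.2 (SD) over the 8 hypertrophy arrays, and its difference of 1.0 ± 0.23 (log2, SE) was the largest of the 11 probe sets. It was the only one of the 10 probe sets of the first type whose groups did not overlap (1.75% of all were higher without overlap) and it was not called (adjusted p = 0.147). Tie1 99936_at differed by 0.42 ± 0.11, Nos3 by 0.40 ± 0.17 and Flt1 98453_at by 0.31 ± 0.13 (log2, SE). These 4 had an unadjusted limma p under 0.05, all higher, as did 7.28% of all probe sets of the type, and 0% of the type were called. Differences were positive in 9 of 10, against 60.9% of the type. Without Tie1 161184_f_at, which passed the filter through transgenic arrays alone, 8 of 9 were positive. On the second type Flt1 differed by -0.06 ± 0.14, and 0.0286% were called. Cdh5 differed by 0.12 ± 0.33, and by -0.10 without hypertrophy replicate 1. Kdr differed by 0.08 ± 0.19, and by -0.13 without hypertrophy replicates 1, 6 and 7.

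The endothelial genes did not vary as 1 block. Among the 28 pairs of the 8 genes with a tested probe set on the first type, the median Pearson correlation of log2 levels over the 16 arrays was 0.35, from -0.36 for Eng and Nos3 to 0.91 for Vwf and Tie1 (rho = 0.85). These values describe arrays that share labelling and scaling and fall into 3 groups. Within the 8 hypertrophy arrays Vwf and Tie1 had r = 0.93 (exact permutation p = 0.0017, adjusted p = 0.0260 over 28 pairs) and rho = 0.83 (exact p = 0.0154, adjusted p = 0.203), and r = 0.71 without the 2 arrays of most extreme Vwf. Eng and Cdh5 had r = 0.93 (exact permutation p = 0.0019, adjusted p = 0.0260) and rho = 0.93 (exact p = 0.0022, adjusted p = 0.0625), and r = 0.76 without the 2 arrays of most extreme Eng. For Vwf, Tie1, Eng and Cdh5 alike, hypertrophy replicate 1 was the lowest of the 8 arrays and replicate 7 the highest. Replicate 1 was the lowest of the 16 arrays for 31.1% of all tested probe sets of the type, and replicate 7 the highest for 25.9%. Correlations of other gene pairs are not given.

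**Figure D4:**
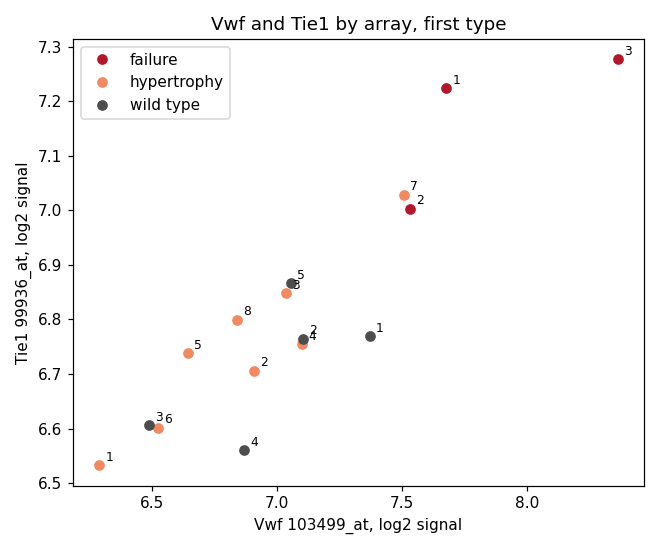
Log2 signal of Tie1 99936_at (vertical) against Vwf 103499_at (horizontal) in the 16 arrays of the first type, numbered by replicate and coloured by group. The arrays follow 1 rising line with r = 0.91, the 3 failure arrays and hypertrophy replicate 7 at its upper end and hypertrophy replicate 1 at its lower end.

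The genes most like the mean standardised level of the 8 endothelial genes over the 16 arrays, among 6097 other named probe sets, were Cyb5r3 (r = 0.92, rho = 0.88), Stat3 (0.91 and 0.80), Usp7 (0.91 and 0.80), Qk (0.91 and 0.78), Trak2 (0.90 and 0.76) and Plpp1 (0.88 and 0.78). Without failure replicate 3 and hypertrophy replicate 1, the arrays farthest from the median, r was 0.64 to 0.80 for the 6. No test was made of these values, and none of the 6 is a gene of the lists below.

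Other endothelial genes were examined as a list chosen with earlier results of these data known. Of 27 tested in failure against wild type, limma called 0. At an unadjusted limma p under 0.05 there were 2, both higher and both on the second array type. The share of all probe sets higher at that level was 7.15% on the first type and is not given for the second. Differences were positive in 14 (58.5% of all probe sets of the first type were), and the median log2 difference was 0.01, beside 0.04 for all probe sets of the first type. The smallest limma p-values belonged to Ptprb, the VE-PTP phosphatase that acts on Tie receptors and Cdh5 (0.49 ± 0.16, adjusted p = 0.175), to the junction protein gene Esam (0.45 ± 0.16, adjusted p = 0.235), both on the second array type, and to the protein C receptor gene Procr (-0.26 ± 0.14, adjusted p = 0.533). Ptprb averaged 125 ± 11.02 (SD) over the 3 failure arrays and 89.2 ± 5.58 (SD) over the 5 wild type arrays, without overlap.

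Of 14 tested VEGF and angiopoietin ligands, co-receptors and regulators, limma called 0 (3 at an unadjusted p under 0.05) and 8 were positive, with a median of 0.07. Over the first type 7.15% were higher at the unadjusted level and 58.5% positive, so 8 of 14 is near the share of all. The hypoxia factor gene Epas1 differed by 0.46 ± 0.17, the receptor gene Notch1 by 0.33 ± 0.15 and the ligand gene Vegfb by -0.41 ± 0.19 (log2, SE), with adjusted p of 0.319 to 0.447. Of 17 tested partners of endothelin, nitric oxide and endoglin signalling, 13 were positive, beside the same 58.5% of all. Their median was 0.15, beside 0.04 for all, and 4 had an unadjusted limma p under 0.05. On the first type 7.15% of all probe sets were higher at that level, and the share of the second type is not given. The 4 were all higher, Smad1 and Smad7 on the first type and Bmpr2 and Tgfbr1 on the second. Of these Tgfbr1, the type I TGF-beta receptor, rose by 0.80 ± 0.16 (log2, SE, adjusted p = 0.0362 in limma), from 3 failure arrays averaging 175 ± 18.9 (SD) and 5 wild type arrays averaging 101 ± 16.1 (SD). It was the 1 member of these lists called, on the second array type, where 0.357% of all were called. That call held in 17 of 27 alternatives. It was lost with the replicate block, fitted to the groups compared alone (0.85, adjusted p = 0.0919). It was also lost, with adjusted p up to 0.123, without any one of the 3 failure arrays and without hypertrophy replicate 4 or 6. The same held without wild type replicate 1, 2, 3 or 5. Genes of activated endothelium (4 tested) and lymphatic endothelium (2 tested) had no call in limma and 0 members at an unadjusted p under 0.05. Vcam1, an adhesion molecule of inflamed vessels, differed by 0.08 ± 0.11, Plat by 0.08 ± 0.11 and Cxcl1 by 0.35 ± 0.23, and the lymphatic genes Flt4 and Reln by 0.25 ± 0.19 and -0.28 ± 0.18. In hypertrophy against wild type none of these 5 lists had a call. At an unadjusted limma p under 0.05, 4 of them had 0 members and the endothelin, nitric oxide and endoglin list had 2 of 17. Both were higher, Nos1 on the first type and Bmpr2 on the second. On the first type 2.25% of all probe sets were higher at that level, and the share of the second type is not given. In failure against hypertrophy none had a call either. In the order in which the lists stand above, 2 of 27, 4 of 14, 5 of 17, 0 of 4 and 0 of 2 members had an unadjusted limma p under 0.05. All were higher except 1 of the 4 and 1 of the 5. Ptprb and Esam, the 2 of the first list, and Tgfbr1 of the endothelin, nitric oxide and endoglin list were on the second type. On the first type 7.28% of all probe sets were higher at that level, and the share of the second type is not given.

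Markers of other cells were set beside the endothelial genes on the first array type. The summed signal of the 10 endothelial genes was 2310 to 2739 in failure, 1587 to 2653 in hypertrophy and 2079 to 2585 in wild type. Eng was the largest part of it, with means of 798 in failure and 841 in wild type beside mean sums of 2499 and 2246. Vwf and Tie1 added means of 240 and 144 in failure. Smooth muscle and pericyte markers (8 of 9 genes on the type) summed to 1847 to 2058 in failure, 979 to 1901 in hypertrophy and 1428 to 1730 in wild type, so the failure arrays lay above the wild type arrays. Des, which cardiomyocytes also express, averaged 952 in failure and 644 in wild type, and without it the sums overlapped (936 to 1081 in failure, 660 to 989 in hypertrophy and 879 to 1008 in wild type). Myh11, Cnn1 and Acta2 of smooth muscle differed by 0.04, 0.0046 and -0.07 (log2) and the pericyte gene Pdgfrb by 0.42 ± 0.17 (SE, adjusted p = 0.395 in limma). Tagln differed by 0.14 and, on the second array type, Rgs5 by 0.25 and Cspg4 by 0.23. Of the 8 tested markers of this list, 7 were positive in failure against wild type (58.5% of all probe sets of the first type were). Their median was 0.19, beside 0.04 for all, and limma called 0. Fibroblast markers (9 of 9) spanned 4228 to 7680 in failure, 3158 to 6230 in hypertrophy and 4282 to 4880 in wild type. Dcn was a large part of this sum, at 2942 in failure and 2508 in wild type. Of 8 tested fibroblast markers limma called 0, and 7 were higher in failure than in wild type, with a median log2 difference of 0.40. The largest were Mfap5 (1.26 ± 0.28, adjusted p = 0.084, groups not overlapping), Col1a1 (1.24 ± 0.45) and Col3a1 (1.17 ± 0.71, SE). Cardiomyocyte markers (8 of 9) spanned 43564 to 44760 in failure, 39367 to 49475 in hypertrophy and 41906 to 48204 in wild type. All 9 cardiomyocyte markers were bright enough to be tested. Macrophage markers (8 genes) overlapped in all groups, as did lymphocyte markers (5 of 6), of which Cd3g, and no other marker of these lists, was below the floor in all arrays. Red cell markers (2 of 4) spanned 3892 to 10383 in failure, 1935 to 7722 in hypertrophy and 4457 to 6471 in wild type. Platelet markers (4 of 8), of interest because platelets carry Vwf, summed to 392 to 421 in failure, 374 to 457 in hypertrophy and 431 to 477 in wild type, lower in every failure array than in any wild type array. Gp9 was the 1 platelet marker bright enough to be tested and made up most of the sum, at 286 in failure and 319 in wild type (-0.16 ± 0.11, log2, SE, adjusted p = 0.673 in limma, groups overlapping). Without it the sums overlapped (98.0 to 145 in failure, 80.5 to 151 in hypertrophy and 108 to 152 in wild type). The sums without Des and Gp9 were added with the data in view. The part of these other cells in the endothelial values was not tested.

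**Figure D5:**
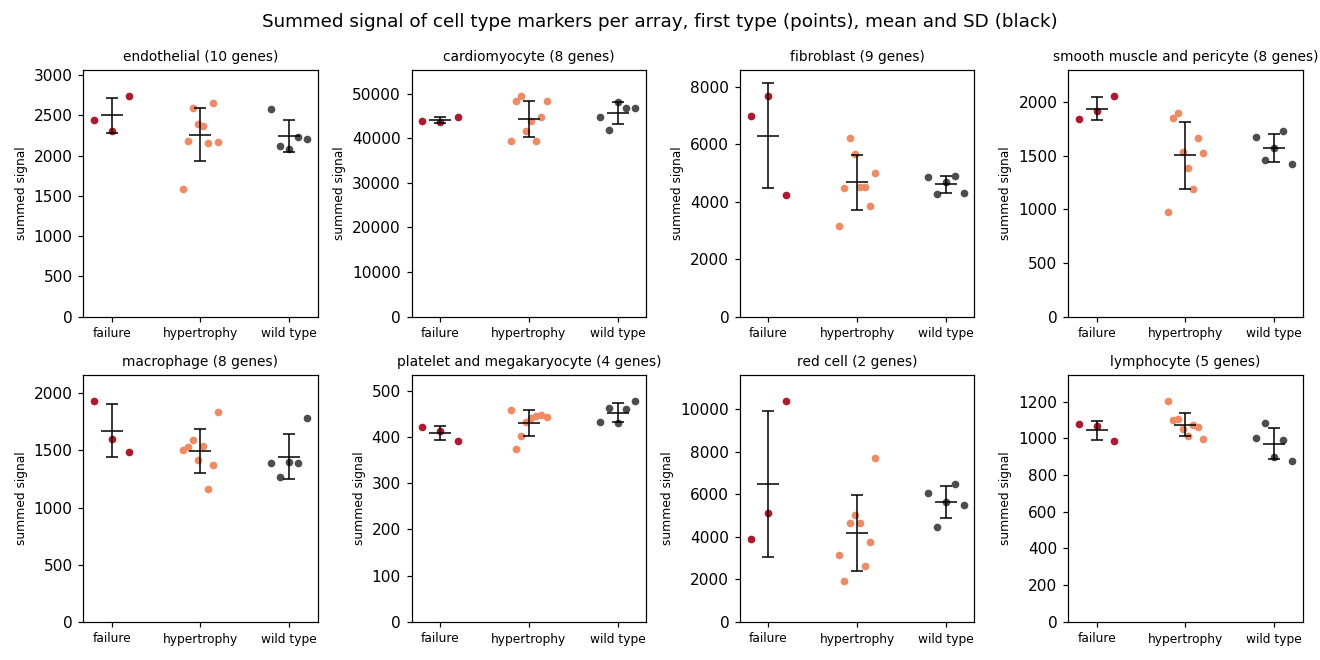
Summed signal of marker genes of 8 cell types per array of the first type (vertical axes from 0; points are arrays, black marks the mean and SD) in failure, hypertrophy and wild type. Hypertrophy replicate 1 has the lowest endothelial sum, 1587, and the failure arrays lie above wild type for smooth muscle and pericyte markers and below it for platelet markers, in sums that rest largely on Des and Gp9.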

How the data were processed

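The deposited tables hold linear intensities, 1 for each probe set and array, with a highest value of 10665 for one type and 11877 for the other. The scaling and summary behind the authors' intensities were not given in the sources used here. Array medians varied by 6.60% and 4.65% (coefficient of variation), and no further scaling was applied. A floor at the 20th percentile of the array type (39.5 and 27.5) was set ahead of log2 and shrinks differences of dim probe sets. Tests were limited to probe sets, controls aside, at or over the array's own median on 3 or more arrays, 6980 and 7004 in all. limma 3.58.1 in R 4.3.3 (lmFit, eBayes) was fitted to the 16 arrays of each type, with Benjamini-Hochberg adjustment per type and comparison and a threshold of 0.05; the procedure was tested on simulated data. The number of arrays limits precision.

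Symbols come from the platform annotation, brought to GRCm38.p6 (12 and 20 changed). A single gene was given for 10833 and 10581 probe sets, several for 396 and 178, and none for 1193 and 1652. Lists take the brightest tested probe set of a gene, from the first type where possible. Named in each list are called members, or else those with the 3 smallest p-values in failure against wild type. The 6 genes of most similar profile were those of highest Pearson correlation. The endothelial genes and all lists were chosen with earlier results of these data known. Relations over hypertrophy arrays were tested by exact permutation (40320 orders, two-sided). Alternatives were scaling, floor, filter, variance trend, samples fitted, replicate block and arrays left out. The replicate block was fitted to the groups compared alone, so it changed the samples fitted as well. Figures were drawn with matplotlib 3.10.9.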

Additional observations from a re-analysis of the deposited data

How the results depend on the processing

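In each comparison and under 27 alternatives, 16 of which leave out 1 array, limma called 0 endothelial probe sets, except for 2 in failure against wild type without hypertrophy replicates 1, 6 and 7, an alternative added with the data in view. These were Vwf (adjusted p = 0.0388) and Tie1 99936_at (0.0351); their differences stay at 0.88 and 0.45, since only the shared spread changes. Over all alternatives their adjusted p ran up to 0.505 and 0.547. Calls over all probe sets of the first type in that comparison numbered 10, and 0 (without failure replicate 1) to 153 (without hypertrophy replicates 1, 6 and 7). Same-numbered arrays did not pair (22 pairs, r from -0.19 to 0.36, 4 closest to their own number); with a replicate block Vwf was 0.87 (adjusted p = 0.356) and Tie1 99936_at 0.45 (0.376).

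Of 33 log2 differences 18 kept their sign throughout, and the cause of the other turns was not tested. The largest difference that turned was that of Nos3 in failure against wild type, 0.33, at -0.039 with the Actb covariate. In failure against wild type, Cdh5 was -0.0081 with median scaling and -0.075 with the replicate block, and with the Actb covariate Eng was 0.30. Apart from single arrays left out, Cdh5 in that comparison reached at most 0.69 (0.09 in the main fit) and Edn1 at most 0.41 (0.22 in the main fit). In failure against hypertrophy, Kdr was -0.020 with quantile scaling, -0.013 with median scaling, -0.022 without hypertrophy replicates 6 and 7, -0.043 with the Actb covariate and -0.13 without replicates 1, 6 and 7. There Edn1 was -0.0013 with median scaling, Eng 0.14 with the replicate block and 0.21 with the Actb covariate, and Cdh5 -0.056 without replicates 1, 6 and 7. In hypertrophy against wild type, Eng was -0.036 with the replicate block and -0.063 without replicates 6 and 7, and Nos3 0.047 without these and 0.039 without replicates 1, 6 and 7. Cdh5 was 0.11 and Flt1 98452_at 0.0014 with the Actb covariate. Without replicates 1, 6 and 7, Cdh5 was 0.14, Tie1 161184_f_at 0.0014, Flt1 98452_at 0.025 and Flt1 106503_at 0.0059.

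With single arrays left out, Cdh5 ranged from -0.017 to 0.20 in failure against wild type and from -0.10 to 0.24 in failure against hypertrophy, where Kdr ranged from -0.00052 to 0.19 and Flt1 106503_at from -0.21 to 0.038. In hypertrophy against wild type the ranges were -0.052 to 0.11 for Eng, -0.11 to 0.19 for Cdh5, -0.17 to 0.0095 for Tie1 161184_f_at, -0.067 to 0.045 for Flt1 98452_at, -0.0018 to 0.076 for Tie1 99936_at and -0.11 to 0.022 for Flt1 106503_at. Dim probe sets, of Tek and Pecam1 above all, limit what can be read.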
